A study of Mus musculus with 10 samples.

Results

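The semaphorins, plexins and neuropilins were examined in the cortical hem (CH), the signaling center at the medial edge of the embryonic cortex, in wild-type and *Lmx1a*-/- mouse embryos. The genes were chosen by symbol as every semaphorin of classes 3 to 7, every plexin and both neuropilins, which gave 31 of the 52227 genes counted: 20 semaphorins, 9 plexins and 2 neuropilins. RNA was sequenced from CH tissue taken by laser capture microdissection at embryonic day (e) 13.5 from 5 wild-type and 5 *Lmx1a*-/- embryos, and the capture of each embryo was pooled over its sections into 1 library. The study compared the genotypes to find CH genes that depend on *Lmx1a*, a LIM homeodomain transcription factor of the CH. The mutants carried the drJ allele (*Lmx1a* drJ), which the study uses as a null in the whole animal, and embryos of both genotypes and both sexes came from a mixed C57Bl6, FVB and CD1 background. Neither genotype received a treatment.

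Semaphorins are extracellular cues that steer growing axons and migrating cells. Those of class 3 are secreted, those of classes 4, 5 and 6 span the membrane, and the class 7 member is anchored in it by a lipid. Plexins are their receptors and act on small GTPases and the cytoskeleton, and most class 3 semaphorins reach a plexin only through a neuropilin. Through repulsion and attraction these proteins guide cortical and hippocampal axons and migrating neurons, and in vessels they pattern the endothelium.

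The libraries held 19407267 to 33130138 counts in wild-type and 19145952 to 36462780 in *Lmx1a*-/- embryos, and levels are given as counts-per-million (CPM) after TMM scaling, an adjustment for library composition. The CH markers *Lmx1a*, *Wnt3a*, *Wnt2b*, *Wnt8b*, *Rspo1*, *Rspo2*, *Rspo3* and *Bmp6* were present in every library, with a summed level of 1880 to 3660 CPM in wild-type and 2380 to 3480 CPM in mutants. *Lmx1a* itself was at 45.6 to 90.8 CPM in wild-type and 89.9 to 145 CPM in mutants (edgeR quasi-likelihood FDR = 0.0658). Since reads of the drJ allele and of the normal allele are counted together, this level is no check of the genotype. *Xist*, which is transcribed from an inactive X chromosome, was at 4399 to 5169 CPM in wild-type embryos 2 to 5 and at 1.01 CPM in wild-type embryo 1. It was at 0.163 to 1.15 CPM in the 5 mutants, so that sex and genotype were largely confounded. The summed level of 14 choroid plexus epithelium markers ran from 134 to 491 CPM in wild-type and from 155 to 233 CPM in *Lmx1a*-/- CH, with wild-type embryo 3 the lowest of all and *Kl*, *Kcne2* and *Cldn2* at 0 in some library. Of the 12 choroid plexus genes tested, 11 had a lower mean in mutants and 3 passed the test. In bulk tissue, fewer cells of a type and less RNA per cell cannot be told apart.

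The 31 genes gave 3 differences between the genotypes at a false discovery rate (FDR) under 0.1 over all genes. *Plxnc1*, a plexin that binds the class 7 semaphorin, was lower in *Lmx1a*-/- CH, and *Sema6a*, a transmembrane class 6 semaphorin, and *Plxna1*, a receptor of several secreted and transmembrane semaphorins, were higher. The edgeR quasi-likelihood test covered 30 of the 31, since *Plxnb3* had 0 to 15 counts per library and did not reach the minimum of 10 counts in 3 libraries. The 1 lower member stood against 2.29% of all 21664 genes tested that were lower at this FDR, and the 2 higher members against 1.72% that were higher. Of the 30, 21 had a lower and 9 a higher mean in mutants, with a median log2 fold change of -0.12 beside a median of -0.0049 over all genes, of which 50.6% had a lower mean. An unadjusted p under 0.05 was found for 7 members, beside 16.4% of all genes tested. The genotypes did not overlap for *Plxnc1*, beside 2.27% of all genes with every mutant below every wild-type embryo, and for *Plxna1*, beside 2.17% with every mutant above.

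**Figure D1:**
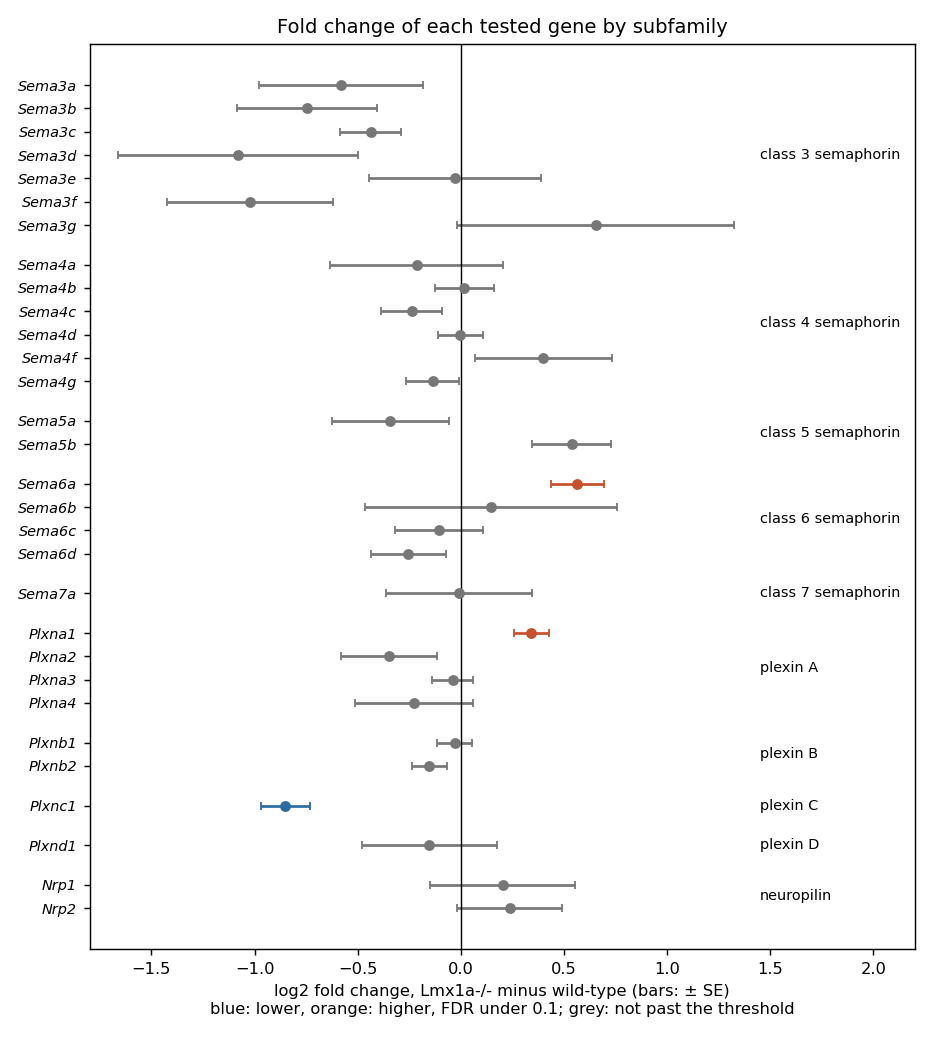
Log2 fold change (*Lmx1a*-/- minus wild-type, horizontal axis) of the 30 tested genes, grouped by subfamily, with bars of 1 standard error from the edgeR fit over 5 embryos per genotype. *Plxnc1* (blue, lower) lies at -0.85 and *Sema6a* and *Plxna1* (orange, higher) at 0.56 and 0.34, while 6 of 7 class 3 semaphorins lie below 0 with wide bars and none of them past the threshold.

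Levels were compared between genes as CPM per kilobase of exon. *Plxnb2*, a plexin of neural progenitors that binds class 4 semaphorins, led wild-type CH at 33.4 ± 3.16 CPM per kilobase (SD, n = 5 embryos). *Sema6a* followed at 19.6 ± 3.24, and *Sema5b*, a transmembrane semaphorin with thrombospondin repeats, at 12.9 ± 3.01. *Plxnb1* at 12.6 ± 1.28, *Plxnc1* at 9.52 ± 1.48, *Plxna2* at 9.19 ± 2.34, *Sema5a* at 9.0 ± 4.54 and *Plxna1* at 8.67 ± 0.887 CPM per kilobase came next, each within 1 SD of its neighbor except *Plxnc1*, which was below *Plxnb1* by more than either SD. At the low end were *Sema6b* at 0.201, *Sema3g* at 0.116 and *Plxnb3* at 0.0272 CPM per kilobase. In *Lmx1a*-/- CH *Plxnb2* was at 30.0 ± 2.75 and *Sema6a* at 29.0 ± 4.90, so the leading pair no longer differed beyond its spread. *Plxna1* was at 11 ± 0.621 and *Plxnc1* at 5.28 ± 0.606 CPM per kilobase in mutants and differed by more than either SD there, whereas in wild-type CH they were within 1 SD.

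**Figure D2:**
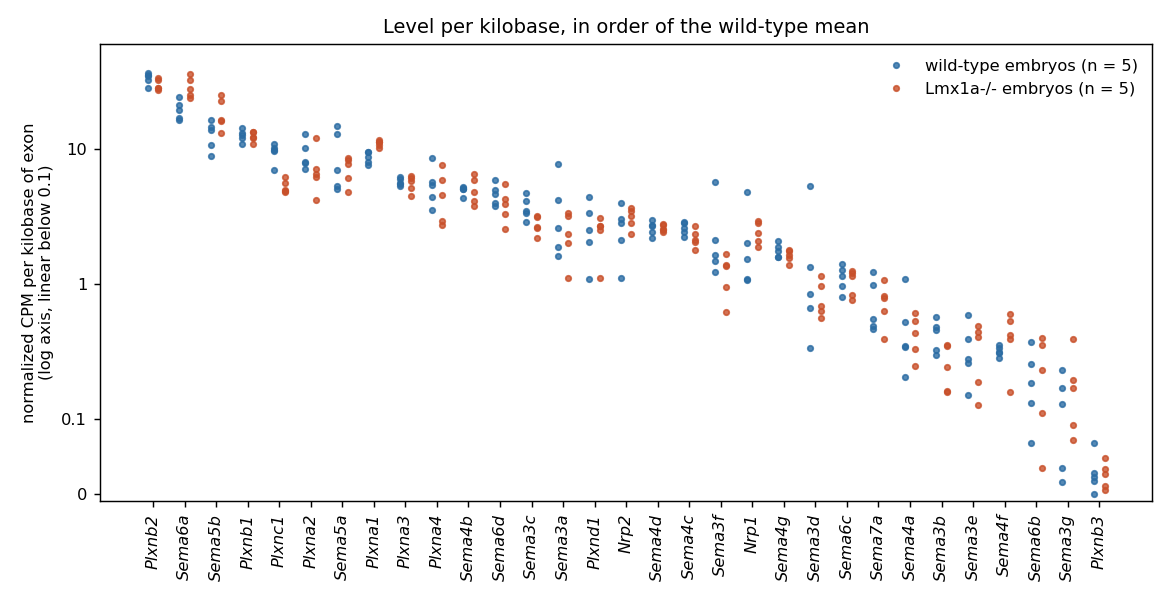
CPM per kilobase of exon (vertical log axis, linear below 0.1) of all 31 genes in each embryo, ordered by the wild-type mean, with wild-type embryos in blue and *Lmx1a*-/- embryos in orange. Levels run from 33.4 for *Plxnb2* to 0.0272 for *Plxnb3* in wild-type CH, and the separate clouds of *Plxnc1* and *Plxna1* stand out from the overlapping ones of most genes.

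Expressed as a share of all semaphorin transcripts per kilobase, *Sema6a* made up 27.1% ± 5.94 in wild-type and 35.8% ± 2.32 in *Lmx1a*-/- CH (SD, n = 5 embryos). *Sema5b* made up 18.0% ± 5.68 and 22.8% ± 2.93, and *Sema5a* 12% ± 5.23 and 8.73% ± 1.24. Among plexins, *Plxnb2* held 38.2% ± 3.37 in wild-type and 38.3% ± 4.56 in mutants. The share of *Plxnc1* was 10.9% ± 1.71 and 6.71% ± 0.660, and that of *Plxna1* was 9.92% ± 0.977 and 14.0% ± 0.954.

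*Plxnc1* (ENSMUSG00000074785, GRCm38 chr10:94790866-94944835, minus strand) was the member with the smallest p. From public in situ hybridization images, the paper lists *Plxnc1* among genes found mainly or only in the CH. Its level was 85.2, 82.1, 58.7, 80.3 and 91.2 CPM in wild-type embryos 1 to 5 and 40.1, 51.7, 40.6, 41.3 and 46.8 CPM in *Lmx1a*-/- embryos 1 to 5. Every mutant was below every wild-type embryo, of which embryo 3 was the lowest. *Plxnc1* fell 1.80-fold, from 79.5 ± 12.3 to 44.1 ± 5.06 CPM (SD, n = 5 embryos), with a log2 fold change of -0.85 ± 0.12 (SE) and an edgeR quasi-likelihood FDR of 0.00249. Of its exon bases, 1.38% are shared with another gene on its strand, *Gm48718*. Leaving out each embryo in turn gave log2 fold changes of -0.95 to -0.80, with the call kept in 10 of 10 fits.

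The *Plxnc1* difference was also set beside sex and choroid plexus content. Wild-type embryo 1, whose *Xist* level was as low as in the mutants, had 85.2 CPM against 40.1 to 51.7 in the mutants. From this single embryo, sex and genotype cannot be told apart for *Plxnc1*. With the *Xist* level as a covariate the log2 fold change was -0.96, with an edgeR quasi-likelihood FDR of 0.13. With the mean of the choroid plexus markers as a covariate it was -0.60, with an edgeR quasi-likelihood FDR of 0.324. The genotype correlates with *Xist* (r = -0.823) and with the choroid plexus mean (r = -0.773) over the same 10 embryos. Wild-type embryo 3 had the lowest choroid plexus sum of all 10 libraries. By the mean log2(CPM + 1) of the list, the measure used as covariate, mutants 1 (2.25) and 2 (1.97) were below wild-type embryo 3 (2.28). Wild-type embryo 3 had the lowest wild-type level of *Plxnc1*, 58.7 CPM, with the highest mutant at 51.7 CPM. The same embryo had the lowest CH marker sum of the 10, 1880 CPM, and the lowest wild-type Cajal-Retzius marker sum, 317 CPM. The part of these cell types in the *Plxnc1* level was not tested.

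The 250 bases before the *Plxnc1* transcription start are shown because *Plxnc1* was the only member lower past the threshold. The mutants lack the function of a homeodomain factor, though the paper reports that inactive Lmx1a protein is still made. The bases come from RefSeq (GRCm38.p6, chr10:94944846-94945095, minus strand) and read 5′ to 3′ in the direction of transcription. Capitals mark each GGGCGG or its reverse complement CCGCCC, the GC box bound by Sp1 family factors.
Plxnc1: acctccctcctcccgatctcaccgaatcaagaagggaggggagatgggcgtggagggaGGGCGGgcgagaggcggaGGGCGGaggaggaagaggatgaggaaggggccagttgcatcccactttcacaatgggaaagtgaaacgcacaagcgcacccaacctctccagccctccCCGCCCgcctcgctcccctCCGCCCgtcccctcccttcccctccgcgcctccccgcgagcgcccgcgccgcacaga
The window had 68.8% G and C, beside a median of 52.4% over all 32851 promoter windows, and exceeded 89.0% of them. It held 4 GC boxes and no TAAT, the core letters that many homeodomain proteins bind, on either strand. With both strands searched in windows of this length, GGGCGG was in 32.7% and TAAT in 54.9% of all windows. Windows of 26 of the 31 genes were counted, 37 in all, and those counted did not include *Sema6a* or *Plxna1*. The counts among members therefore leave out both genes that were higher past the threshold. GGGCGG was in 27 of the 37 windows and TAAT in 14 of 37. The longer TAATTA, which overlaps TAAT, was in 0 of 37 and in 4.84% of all windows. These matches describe the letters of the window and not binding.

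Among the class A plexins, which pair with neuropilins for secreted semaphorins or bind class 5 and 6 semaphorins directly, *Plxna1* (ENSMUSG00000030084, GRCm38 chr6:89316314-89362620, minus strand) was higher in mutants. Its level was 72.3, 86.2, 86.4, 79.0 and 68.6 CPM in wild-type and 106, 91.4, 101, 96.5 and 103 CPM in *Lmx1a*-/- embryos 1 to 5, and the genotypes did not overlap. The level rose from 78.5 ± 8.03 to 99.5 ± 5.62 CPM (SD, n = 5 embryos), a log2 fold change of 0.34 ± 0.084 (SE) with an edgeR quasi-likelihood FDR of 0.0535. The call was lost when wild-type embryo 1 (edgeR quasi-likelihood FDR = 0.129), wild-type embryo 5 (0.103), mutant 4 (0.102) or mutant 5 (0.115) was left out, with log2 fold changes of 0.29 to 0.38 over all 10 such fits. With *Xist* as a covariate the log2 fold change was 0.47 (edgeR quasi-likelihood FDR = 0.341), and with the choroid plexus mean 0.29 (FDR = 0.589). Wild-type embryo 1 alone, with low *Xist*, had 72.3 CPM against 91.4 to 106 in mutants, and sex and genotype cannot be told apart for *Plxna1* either. Of the *Plxna1* exon bases, 970 (10.7%) lie opposite *Gm26811*, whose reads cannot be told apart from those of *Plxna1* if the counting ignored strand.

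The other class A plexins did not pass. *Plxna2*, a receptor of *Sema6a*, had the highest mean of the class per kilobase in wild-type CH, within 1 SD of *Plxna1*. It was at 138, 135, 221, 173 and 123 CPM in wild-type and 112, 121, 72.4, 107 and 208 CPM in mutants. The groups overlapped widely, as mutant 5 lay above 4 of the 5 wild-type embryos, and the log2 fold change was -0.35 ± 0.24 (SE, edgeR FDR = 0.503). *Plxna4*, another *Sema6a* receptor, was at 49.8 to 121 CPM in wild-type and 38.2 to 107 CPM in mutants, with a log2 fold change of -0.23 ± 0.28. *Plxna3*, an X-linked receptor for *Sema3f* with *Nrp2*, was at 41.8 to 48.7 and 35.5 to 49.3 CPM, with a log2 fold change of -0.039 ± 0.10.

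Class B plexins, which bind class 4 semaphorins, did not pass. *Plxnb2* was at 273, 281, 219, 250 and 267 CPM in wild-type and 213, 219, 250, 259 and 219 CPM in *Lmx1a*-/- embryos. The genotypes overlapped, with a log2 fold change of -0.15 ± 0.085 (SE, edgeR FDR = 0.4). The *Sema4d* receptor *Plxnb1* was at 105 to 138 CPM in wild-type and 105 to 127 CPM in mutants, with a log2 fold change of -0.030 ± 0.086 and a 95% interval of -0.20 to 0.14. *Plxnb3*, also X-linked, was at 0.441 CPM or less in every library. The class D member *Plxnd1*, a receptor best known in vessels, was at 32.4, 14.9, 24.3, 7.89 and 18.2 CPM in wild-type and 19.6, 22.6, 19.7, 8.11 and 18.3 CPM in mutants. Embryo 4 was the lowest of each genotype, and the log2 fold change was -0.15 ± 0.33 (SE, edgeR FDR = 0.868), or 0.10 without wild-type embryo 1.

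**Figure D3:**
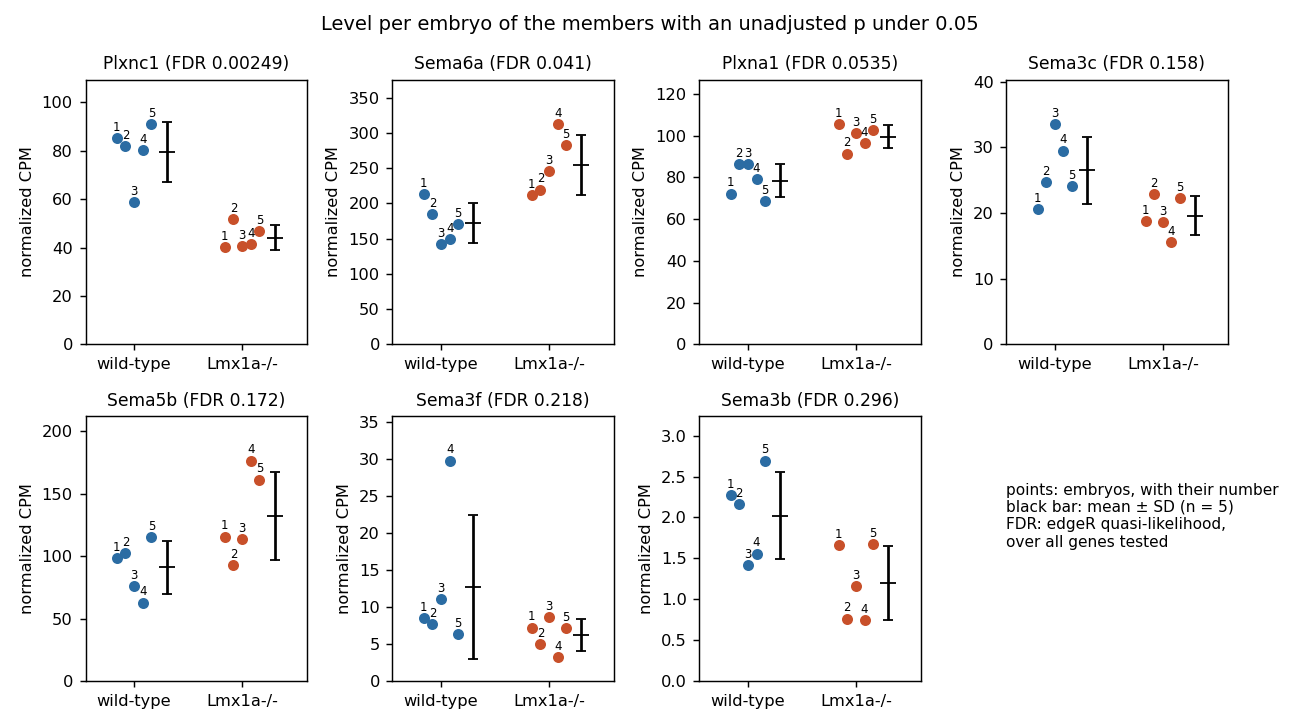
Level in CPM (vertical axis, from 0) of the 7 members with an unadjusted p under 0.05 in each wild-type (blue) and *Lmx1a*-/- (orange) embryo, numbered, with the mean and SD of 5 embryos in black and the edgeR FDR over all genes above. *Plxnc1* and *Plxna1* show no overlap, *Sema6a* overlaps only through wild-type embryo 1 at 213 CPM, and the *Sema3f* mean rests on wild-type embryo 4 at 29.7 CPM.

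Among the class 6 semaphorins, transmembrane ligands that can also signal into their own cell, *Sema6a* (ENSMUSG00000019647, GRCm38 chr18:47235598-47368870, minus strand) was higher in mutants. Its level was 213, 185, 143, 150 and 170 CPM in wild-type embryos 1 to 5 and 211, 220, 245, 313 and 283 CPM in *Lmx1a*-/- embryos 1 to 5. The genotypes overlapped at a single point, since wild-type embryo 1 was just above mutant 1. *Sema6a* rose 1.48-fold, from 172 ± 28.4 to 254 ± 43.0 CPM (SD, n = 5 embryos), with a log2 fold change of 0.56 ± 0.13 (SE) and an edgeR quasi-likelihood FDR of 0.041. Without mutant 4, the highest embryo, the log2 fold change was 0.48 and the edgeR quasi-likelihood FDR 0.1, and the call held in the other 9 fits that left out an embryo.

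Wild-type embryo 1, with low *Xist*, lay within the mutant range of *Sema6a*, at 213 CPM against 211 to 313. With *Xist* as a covariate the log2 fold change was 0.26 (edgeR quasi-likelihood FDR = 0.736), and with the choroid plexus mean it was 0.88 (FDR = 0.117). Sex and genotype cannot be told apart for *Sema6a* in these embryos. Without both wild-type embryos 3 and 4, an alternative added after the data were seen, the log2 fold change was 0.42 and the edgeR quasi-likelihood FDR 0.136. The Cajal-Retzius markers, a list that includes neurons the CH produces, had summed levels of 317 to 515 CPM in wild-type and 208 to 306 CPM in mutants, with 3 of 7 tested genes lower and 1 higher past the threshold and *Calb2* at 0 in some library. The cortical neuroepithelium markers were at 309 to 646 and 565 to 784 CPM, with 5 of 5 means higher and 1 past the threshold. Their part in the *Sema6a* difference was not tested.

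The other class 6 genes did not pass. *Sema6d* was at 40.0 to 62.3 CPM in wild-type and 26.9 to 58.2 CPM in mutants (log2 fold change -0.25 ± 0.18, SE). *Sema6c* was at 4.73 to 8.36 and 4.51 to 7.39 CPM (-0.11 ± 0.21). *Sema6b*, the lowest of the class, was at 0.271 to 1.47 and 0.139 to 1.56 CPM (0.15 ± 0.61).

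After *Sema6a*, both class 5 genes were the most abundant semaphorins per kilobase. *Sema5b*, which is reported to bind *Plxna1* and *Plxna3* proteins in the retina, was at 98.3, 103, 75.9, 62.8 and 116 CPM in wild-type and 116, 92.7, 114, 177 and 161 CPM in *Lmx1a*-/- embryos 1 to 5. Mutants 4 and 5 were above every wild-type embryo, and mutant 1 only just, at 115.7 CPM against 115.6 CPM in wild-type embryo 5. Mutants 2 and 3 lay within the wild-type range. The log2 fold change was 0.54 ± 0.19 (SE), with an edgeR quasi-likelihood FDR of 0.172 and a DESeq2 FDR of 0.0716. *Sema5a* was at 93.9 to 276 CPM in wild-type and 89.0 to 160 CPM in mutants. Its wild-type spread came from embryos 3 at 276 CPM and 4 at 242 CPM, and the log2 fold change of -0.34 ± 0.29 became 0.30 without both.

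The secreted class 3 semaphorins, repellents and attractants that act over a distance, had lower means in 6 of 7 cases, with a median log2 fold change of -0.58. None of the 7 passed the edgeR quasi-likelihood threshold, and 3 had an unadjusted p under 0.05, beside 16.4% of all genes tested. DESeq2 called 2 of the 7 lower, beside 953 of all 21664 genes tested. *Sema3c*, the highest of the class per kilobase, was at 20.6, 24.7, 33.6, 29.5 and 24.1 CPM in wild-type and 18.8, 22.8, 18.6, 15.6 and 22.2 CPM in mutants. The ranges overlapped, with 3 mutants below every wild-type embryo. Its log2 fold change was -0.44 ± 0.15 (SE), with an edgeR quasi-likelihood FDR of 0.158 and a DESeq2 FDR of 0.0851.

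*Sema3f*, a ligand of *Nrp2*, was at 8.51, 7.71, 11.1, 29.7 and 6.32 CPM in wild-type and 7.18, 4.95, 8.58, 3.24 and 7.10 CPM in mutants. Wild-type embryo 4 stood far above the rest. The log2 fold change was -1.02 ± 0.40 (SE), with an edgeR quasi-likelihood FDR of 0.218 and a DESeq2 FDR of 0.087, and without embryo 4 it was -0.44 (edgeR quasi-likelihood FDR = 0.502). The same embryo was highest for *Sema3d*, at 45.6 CPM against 2.88 to 11.5 CPM in the other wild-type and 4.78 to 9.88 CPM in mutant embryos, and the log2 fold change of -1.08 ± 0.58 was -0.0042 without it. It was also highest for *Sema3a*, the classic axon repellent, at 107 CPM against 22.4 to 58.4 CPM in the other wild-type and 15.3 to 46.1 CPM in mutant embryos, where the log2 fold change of -0.58 ± 0.40 was -0.11 without it.

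The remaining class 3 genes were low. *Sema3b* was at 1.41 to 2.7 CPM in wild-type and 0.748 to 1.67 CPM in mutants, with a log2 fold change of -0.75 ± 0.34 (SE) and an edgeR quasi-likelihood FDR of 0.296. The *Plxnd1* ligand *Sema3e* was at 1.40 to 5.44 and 1.18 to 4.53 CPM, with a log2 fold change of -0.027 ± 0.42. *Sema3g*, with 2 to 53 counts per library, was the only class 3 gene with a higher mean in mutants (0.65 ± 0.67). *Sema3a*, *Sema3c*, *Sema3d* and *Sema3e* all lie on chromosome 5 and *Sema3b* and *Sema3f* on chromosome 9.

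Mesenchyme and meninges, a source of secreted semaphorins around the brain, were represented by 8 markers with summed levels of 344 to 937 CPM in wild-type and 258 to 529 CPM in *Lmx1a*-/- CH. Of these 8, 7 had lower means and 3 (*Dcn*, *Lum* and *Pdgfra*) passed the test, and none was at 0 in a library. The highest sum was in wild-type embryo 3, followed closely together by wild-type embryos 4 at 619.5 CPM and 1 at 607.5 CPM. By the mean log2(CPM + 1) of the list, embryo 1 (5.89) was above embryo 4 (5.71). Wild-type embryo 1 had the lowest wild-type level of *Sema3a*, 22.4 CPM. Over the 10 embryos, Pearson's r between the mean of the list and the class 3 genes ran from 0.0689 for *Sema3g* to 0.657 for *Sema3f*. The smallest permutation p among them was that of *Sema3f*, 0.0352, or 0.325 after adjustment over all relations computed. The part of mesenchyme and meninges in the class 3 values was not tested.

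The class 4 semaphorins, transmembrane ligands that bind mainly class B plexins, had log2 fold changes of -0.24 to 0.40 with a median of -0.070. Of the 6, 0 passed the threshold by edgeR or by DESeq2, and 0 had an unadjusted p under 0.05. *Sema4b*, the highest per kilobase, was at 28.7, 28.4, 28.9, 29.6 and 24.4 CPM in wild-type and 23.3, 21.3, 33.3, 36.5 and 27.1 CPM in mutants, so the mutants spread to both sides of the wild-type embryos. Its log2 fold change was 0.017 ± 0.14 (SE), with a 95% interval of -0.26 to 0.30. *Sema4d*, the *Plxnb1* ligand, was at 16.9 to 22.9 and 18.6 to 21.2 CPM, with a log2 fold change of -0.0036 ± 0.11 and a 95% interval of -0.22 to 0.21. The *Plxnb2* ligands *Sema4c* (10.2 to 13.1 and 8.21 to 12.3 CPM) and *Sema4g* (13.7 to 18.1 and 11.9 to 15.4 CPM) had log2 fold changes of -0.24 ± 0.15 and -0.14 ± 0.13. *Sema4a* was at 1.11 to 5.86 and 1.33 to 3.27 CPM and *Sema4f* at 1.49 to 1.85 and 0.831 to 3.15 CPM, with log2 fold changes of -0.21 ± 0.42 and 0.40 ± 0.33.

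*Sema7a*, the only class 7 member and a ligand of both *Plxnc1* and integrins with the *Itgb1* chain, was low. It was at 3.25, 1.80, 4.06, 1.61 and 1.51 CPM in wild-type and 3.52, 2.61, 1.29, 2.69 and 2.09 CPM in mutants, and the genotypes overlapped. Its log2 fold change was -0.011 ± 0.35 (SE, edgeR FDR = 0.992), with a 95% interval of -0.71 to 0.68.

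The neuropilins, coreceptors for secreted semaphorins and for VEGF, both had higher means in mutants without passing by edgeR or DESeq2, and neither had an unadjusted p under 0.05. *Nrp2* was at 36.1, 25.1, 47.1, 13.1 and 33.5 CPM in wild-type and 40.7, 43.2, 33.5, 27.7 and 38.0 CPM in mutants, with a log2 fold change of 0.24 ± 0.25 (SE, edgeR FDR = 0.697). Wild-type embryos held both the highest and the lowest value. *Nrp1* was at 19.6, 10.4, 46.7, 10.7 and 14.9 CPM in wild-type and 28.8, 23.2, 20.2, 18.4 and 27.5 CPM in mutants. Wild-type embryo 3 was the highest of the 10, and the other wild-type embryos overlapped with the mutants only through embryo 1. The log2 fold change of 0.20 ± 0.35 (edgeR quasi-likelihood FDR = 0.83) was 0.76 (FDR = 0.0775) without wild-type embryo 3.

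Ligands and receptors were then set side by side in 25 pairs known to bind, which cover 18 of the 20 semaphorins. In the 24 pairs with both partners tested, both means were lower in 9, both higher in 2, the ligand lower and the receptor higher in 9, and the ligand higher and the receptor lower in 4. A partner passed the threshold in 7 pairs and both partners in 0, where each call is that of the gene in the edgeR fit and no test of a pair was made. For *Sema7a* and *Plxnc1*, wild-type levels were 0.742 and 9.52 CPM per kilobase and mutant levels 0.740 and 5.28. For *Sema6a*, at 19.6 CPM per kilobase in wild-type and 29.0 in mutants, the receptors *Plxna2* (9.19 and 7.22) and *Plxna4* (5.52 and 4.72) had lower means that did not pass. *Plxna1* at 8.67 and 11 CPM per kilobase stood beside *Sema3a* (3.61 and 2.40), *Sema6c* (1.12 and 1.04), *Sema6d* (4.65 and 3.91) and *Sema5b* (12.9 and 18.7). *Sema5a* had 9.0 and 7.10 CPM per kilobase beside *Plxnb3*, the only receptor paired with it here, at 0.0272 and 0.0245. The pairs are not a full list of known partners.

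Beyond the ligands and receptors, 45 genes of the pathway were examined, of which 44 were tested and *Timd2* had no count in any library. Past the threshold 4 were lower and 0 higher, against the same 2.29% and 1.72% of all genes, and the median log2 fold change of the 44 was 0.0065. DESeq2 called 5 lower and 0 higher, beside 953 lower and 741 higher of all 21664 genes tested. An unadjusted p under 0.05 was found for 7 lower and 3 higher genes, beside 16.4% of all genes in either direction. *Kdr*, the VEGF receptor that can join plexin and neuropilin complexes, fell from 93.6 ± 26.2 to 38.3 ± 7.38 CPM (SD, n = 5 embryos), with a log2 fold change of -1.29 ± 0.18 (SE) and an edgeR quasi-likelihood FDR of 0.00249. *Mical2*, of the actin-oxidizing MICAL enzymes, fell from 22.5 ± 5.27 to 8.96 ± 1.74 CPM (log2 fold change -1.33 ± 0.18, edgeR quasi-likelihood FDR = 0.00249). In both genes every mutant was below every wild-type embryo.

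*Farp1*, an exchange factor with a FERM domain, fell from 79.7 ± 6.66 to 59.3 ± 7.94 CPM (log2 fold change -0.43 ± 0.099, edgeR quasi-likelihood FDR = 0.0438). *Rhoa*, the GTPase that drives contraction of the cytoskeleton, fell from 115 ± 7.36 to 92.2 ± 10.3 CPM (-0.32 ± 0.086, FDR = 0.077). The integrin chain *Itgb1* did not overlap between genotypes, at 146 to 163 CPM in wild-type and 131 to 145 CPM in mutants, but its edgeR quasi-likelihood FDR was 0.124. *Arhgap35*, a GTPase-activating protein, did not overlap in the other direction, at 310 to 341 CPM in wild-type and 342 to 364 CPM in mutants (FDR = 0.473). The 5 collapsin response mediators (median log2 fold change 0.21) and the 8 kinases (0.17) had no gene past the threshold by edgeR or DESeq2, with 0 and 3 genes at an unadjusted p under 0.05. From public in situ hybridization images, the paper lists *Kdr* among genes found mainly or only in the CH. *Kdr* is also made by endothelium. The 9 other endothelium markers had summed levels of 25.2 to 89.4 CPM in wild-type and 23.3 to 62.3 CPM in mutants. Of these 9, 7 had lower means in mutants, with a median log2 fold change of -0.365. None was at 0 in a library, 0 of 9 passed the edgeR or DESeq2 threshold and 1 of 9 had an unadjusted p under 0.05. The part of endothelium in the *Kdr* difference was not tested.

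The members were finally related to 8 lists of cell type markers over the 10 embryos, each list as its mean log2(CPM + 1), in 240 relations of 30 members with 100000 permutations each. Only *Plxnd1* and endothelium passed a Benjamini-Hochberg adjustment, by Pearson's r and not by Spearman's rank correlation. The r was 0.938 (two-sided permutation p = 0.00018, adjusted 0.0432) and the Spearman correlation 0.794 (permutation p = 0.00893, adjusted 0.241). Without the 2 embryos farthest from the median, wild-type 1 and mutant 4, r was 0.864, and over deviations from each genotype's mean it was 0.964. The next closest were *Nrp1* and neurons (r = 0.89, permutation p = 0.0005, adjusted 0.06, Spearman correlation 0.879, permutation p = 0.00154, adjusted 0.175), where r was 0.906 without the 2 farthest embryos and 0.876 within genotypes. *Nrp2* and neurons had r = 0.787 (permutation p = 0.00158, adjusted 0.0948) and a Spearman correlation of 0.927 (permutation p = 0.00029, adjusted 0.0696), with 0.725 and 0.758 on the same checks. *Plxnb2* and the CH list had r = 0.889 (permutation p = 0.00114, adjusted 0.0912) and a Spearman correlation of 0.855 (permutation p = 0.00308, adjusted 0.175), with 0.928 and 0.938. For *Plxnc1* and choroid plexus epithelium, where the genotypes form separate groups of *Plxnc1* levels, r over all 10 embryos was 0.844 (permutation p = 0.00562, adjusted 0.153) and the Spearman correlation 0.685 (permutation p = 0.0351, adjusted 0.314), with r = 0.778 without the 2 farthest embryos and 0.533 within genotypes. Neuron markers summed to 446 to 817 CPM in wild-type and 464 to 785 CPM in mutants and microglia markers to 11.6 to 25.3 and 14.8 to 24.8 CPM, with 0 of 7 and 0 of 6 past the threshold by edgeR or DESeq2 and 1 and 0 at an unadjusted p under 0.05. Wild-type embryo 3, the highest for *Nrp1* and *Nrp2*, had the highest neuron marker mean (6.26) and the lowest CH marker mean (7.26). *Plxnc1* and the CH list had r = 0.423 (permutation p = 0.217, adjusted 0.598), with 0.582 within genotypes. The relation to choroid plexus epithelium was not particular to *Plxnc1*. *Plxnb2* and that list had r = 0.85 (permutation p = 0.00483, adjusted 0.153), with 0.819 within genotypes. Their Spearman correlation was 0.83 (permutation p = 0.00471, adjusted 0.188).

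**Figure D4:**
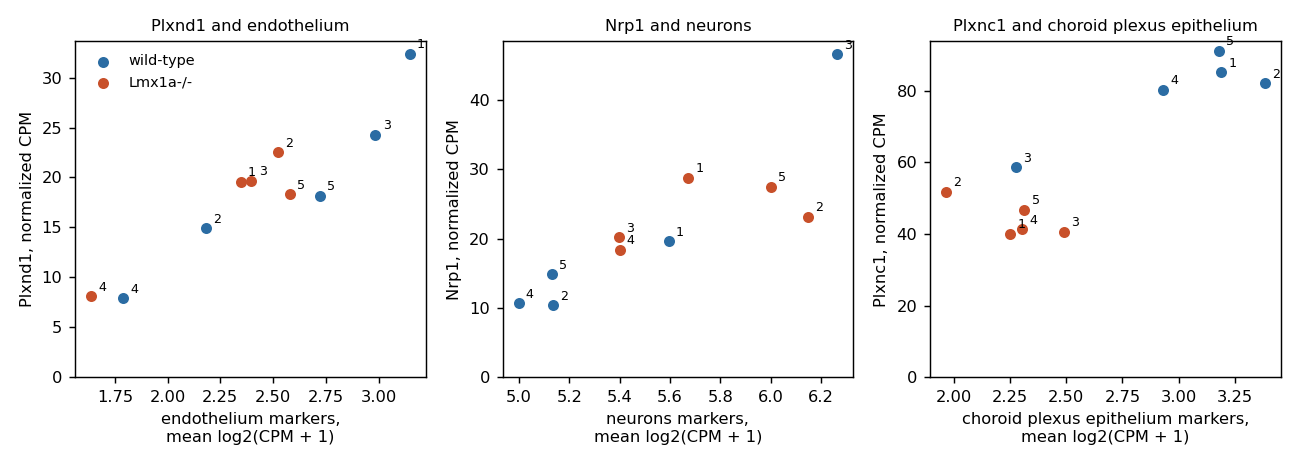
Level in CPM (vertical axes, from 0) of *Plxnd1*, *Nrp1* and *Plxnc1* against the mean log2(CPM + 1) of endothelium, neuron and choroid plexus epithelium markers in each numbered wild-type (blue) and *Lmx1a*-/- (orange) embryo. *Plxnd1* follows the endothelium markers across both genotypes, whereas for *Plxnc1* wild-type embryos 1, 2, 4 and 5 sit apart at 80.3 to 91.2 CPM, with wild-type embryo 3 at 58.7 CPM and the mutants at 40.1 to 51.7 CPM.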

How the data were processed

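The 10 libraries were each made from the captured CH of a separate embryo and were grouped by GEO's labels. Per the paper's methods and the submitters' processing notes, the authors used Trimmomatic for trimming and STAR 2.7.1a for alignment to GRCm38, and deposited raw read counts per gene from HTSeq 0.11.2. HTSeq's strand setting was not given in the sources used here. The deposited table also repeats 281 of its 52508 rows exactly, and the repeats were dropped. Of 52227 genes, 52083 matched a symbol.

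Genes reaching 10 counts in 3 or more libraries, the filter of the study, were tested on the deposited counts with edgeR 4.0.16 in R 4.3.3 (TMM scaling, quasi-likelihood F test, 2 genotypes, no covariate). Calls are at a Benjamini-Hochberg FDR under 0.1 over all 21664 genes tested, the threshold of the study. The script was tested on simulated data. SE is that of the log2 fold change. Exon lengths are unions of GENCODE exons on GRCm38. Relations used two-sided permutation tests and a pseudocount of 1. With 19145952 to 36462780 counts per library, counting error is small for all but the lowest genes. The edgeR p-values set the difference between the genotypes against the spread between embryos.

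Members and lists were chosen with earlier results of these data known. The value in each embryo is given for members past the threshold, for those whose genotypes do not overlap and for the highest of each subfamily per kilobase. *Sema3f*, *Sema3d*, *Sema3a*, *Sema5a*, *Nrp1*, *Itgb1* and *Arhgap35* were described further after their values were seen. Alternatives were DESeq2 1.42.0, a newer quasi-likelihood method, other scalings and filters, FDR under 0.05, a replicate block, *Xist* and choroid plexus covariates and each embryo left out. The fit without wild-type embryos 3 and 4 was chosen after seeing the data.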

Additional observations from a re-analysis of the deposited data

Results flagged for a closer look

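In 60 groups of 5 embryos (30 genes in 2 genotypes), 4 values, from 3 wild-type embryos, stood apart from their group by Dixon's test, in which the gap to the nearest embryo is divided by the range of the group and compared with 0.71. Chance alone gives about 1 in 20 groups. *Sema3d* was at 45.6 CPM in wild-type embryo 4, with the next at 11.5 CPM. *Sema3f* was at 29.7 CPM in the same embryo, with the next at 11.1 CPM. *Nrp1* was at 46.7 CPM in wild-type embryo 3, with the next at 19.6 CPM. *Sema4b* was at 24.4 CPM in wild-type embryo 5, with the next at 28.4 CPM.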

How the results depend on the processing

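Other scalings and filters changed no call among the members. DESeq2 called 3 members lower, 3 higher and 1694 genes in all. FDR under 0.05 left 1 member higher and 448 genes. Embryo numbers do not pair the samples, since same-numbered embryos correlated at -0.155 to 0.0416, and none correlated best with its own number. The paired fit with a replicate block called 1 member lower (*Plxnc1*), 0 higher and 601 genes, with an edgeR FDR of 0.111 for *Sema6a* and 0.136 for *Plxna1*. The *Xist* covariate called 0 members lower, 0 higher and 36 genes, and the choroid plexus covariate 0, 0 and 51. Leaving out each embryo gave 1 member lower, 0 to 3 higher and 451 to 1059 genes. Without wild-type embryos 3 and 4, 1 was lower and 1 higher.

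Log2 fold changes turned sign only in members past no threshold. With a block, *Sema4b* was -0.0094, *Sema4d* 0.0011 and *Sema7a* 0.058. *Sema4d* was 0.0034 with the newer quasi-likelihood method and 0.0081 without TMM. With *Xist*, *Nrp2* was -0.0094, *Plxna3* 0.0086, *Plxnb1* 0.042, *Sema3a* 0.65, *Sema3e* 0.31, *Sema3g* -0.30, *Sema4b* -0.0046, *Sema4g* 0.020, *Sema5a* 0.45 and *Sema6b* -0.13. With the choroid plexus mean, *Nrp1* was -0.72, *Nrp2* -0.20, *Plxnb1* 0.15, *Plxnb2* 0.094 and *Sema6b* -0.50. Without wild-type embryos 3 and 4, *Plxna3* was 0.020, *Plxna4* 0.086, *Sema3a* 0.24, *Sema3d* 0.38, *Sema3e* 0.088, *Sema4a* 0.26, *Sema4d* 0.091, *Sema5a* 0.30, *Sema6c* 0.036 and *Sema7a* 0.15. Leaving out each embryo gave -0.085 to 0.024 for *Plxna3*, -0.082 to 0.017 for *Plxnb1*, -0.36 to 0.10 for *Plxnd1*, -0.22 to 0.28 for *Sema3e*, -0.42 to 0.27 for *Sema4a*, -0.095 to 0.098 for *Sema4b*, -0.063 to 0.044 for *Sema4d*, -0.16 to 0.49 for *Sema6b* and -0.18 to 0.25 for *Sema7a*. The cause was not tested. Depth limits *Sema6b*, *Sema3g* and *Plxnb3*, with 0 to 53 counts per library.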
